A study of Mus musculus with 2 samples.

Results

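The vascular endothelial growth factor (VEGF) and angiopoietin genes were followed across the cell classes of adult mouse brain in 2 single-cell libraries. The 9 genes are the ligands Vegfa, Angpt1 and Angpt2, the VEGF receptors Flt1 and Kdr, the co-receptors Nrp1 and Nrp2, and the tyrosine kinases Tek and Tie1. They were taken by symbol from the 25906 genes of the count tables, and each was found. The labels describe sorted endothelial cells and astrocytes taken from the whole brain. There was 1 library from mice labelled IL34LacZ/+, which the design text calls WT, and 1 from mice labelled IL34LacZ/LacZ, which it calls KO, so both genotypes carry a LacZ allele of Il34. The sources used here do not give the exact age, sex and number of the mice, the sort markers or the structure of the allele.

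VEGF-A is secreted by cells around a vessel, binds Kdr as the main signalling receptor of endothelium, and is held by Flt1, which binds it tightly and signals weakly. Neuropilins are co-receptors without a kinase of their own that present VEGF or class 3 semaphorins to their partners. Angiopoietin-1 activates the kinase Tek and steadies vessels, angiopoietin-2 acts on the same receptor as an antagonist or weak agonist, and Tie1 is a related kinase that modulates Tek.

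Levels are in CPM: the unique molecular identifiers (UMIs) of a gene were summed over the cells of a class, divided by all UMIs of those cells and scaled to a total of 1000000. Where 2 values follow each other, the first is from the library labelled IL34LacZ/+ and the second from the library labelled IL34LacZ/LacZ. Brackets give 95% intervals, which cover counting error only: PCR and capture add error, and cells of 1 library are not replicates. With 1 library per genotype no difference between genotypes has a replicate check and no p-value was computed. Tags come from transcript 3′ ends and are not scaled by length, so levels were compared between cells and not between genes.

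The filters kept 1665 and 1168 cells, whose median depth was 8096 and 10378 UMIs. Each cell was assigned to a class by marker genes, none of which is among the 9 genes studied. Endothelial-like cells numbered 517 and 294, astrocyte-like cells 256 and 118, choroid plexus epithelium-like cells 327 and 244, and oligodendrocyte-like cells 255 and 237. Smaller classes were meningeal border-like (68 and 61), pericyte-like (33 and 45) and fibroblast-like cells (19 and 23). All 14 endothelial markers were detected in endothelial-like cells and all 11 astrocyte markers in astrocyte-like cells of both libraries. The same lists set the classes, so this is not an independent check of them. RNA of other classes was present throughout: endothelial-like cells held 1417 and 1030 CPM of Ttr, a transcript of choroid plexus, and 1461 and 2722 CPM of the haemoglobin transcript Hbb-bs. Il34 tags were not lower in the library labelled IL34LacZ/LacZ: they stood at 361 and 503 CPM in pericyte-like cells and at 354 and 464 CPM in fibroblast-like cells, and the sources used here do not say whether the LacZ allele removes these 3′ tags. An allele that keeps the tags and an exchange of the 2 labels cannot be told apart here, so each direction between the libraries holds by label and would be reversed by an exchange. In these data a group's level cannot tell fewer cells of a type within a class from less RNA per cell.

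The receptors were genes of endothelial-like cells, and the ligands were genes of the cells around them. Flt1, Kdr, Tek and Tie1 were each highest in endothelial-like cells in both libraries, Vegfa and Angpt1 in astrocyte-like cells, and Angpt2 in fibroblast-like cells. By their intervals the top class was not resolved for Angpt1 in either library, or for Angpt2 in the library labelled IL34LacZ/LacZ. The co-receptors were less restricted: Nrp1 was also abundant in meningeal border-like cells, and Nrp2 was prominent in venous endothelial-like and fibroblast-like cells.

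**Figure D1:**
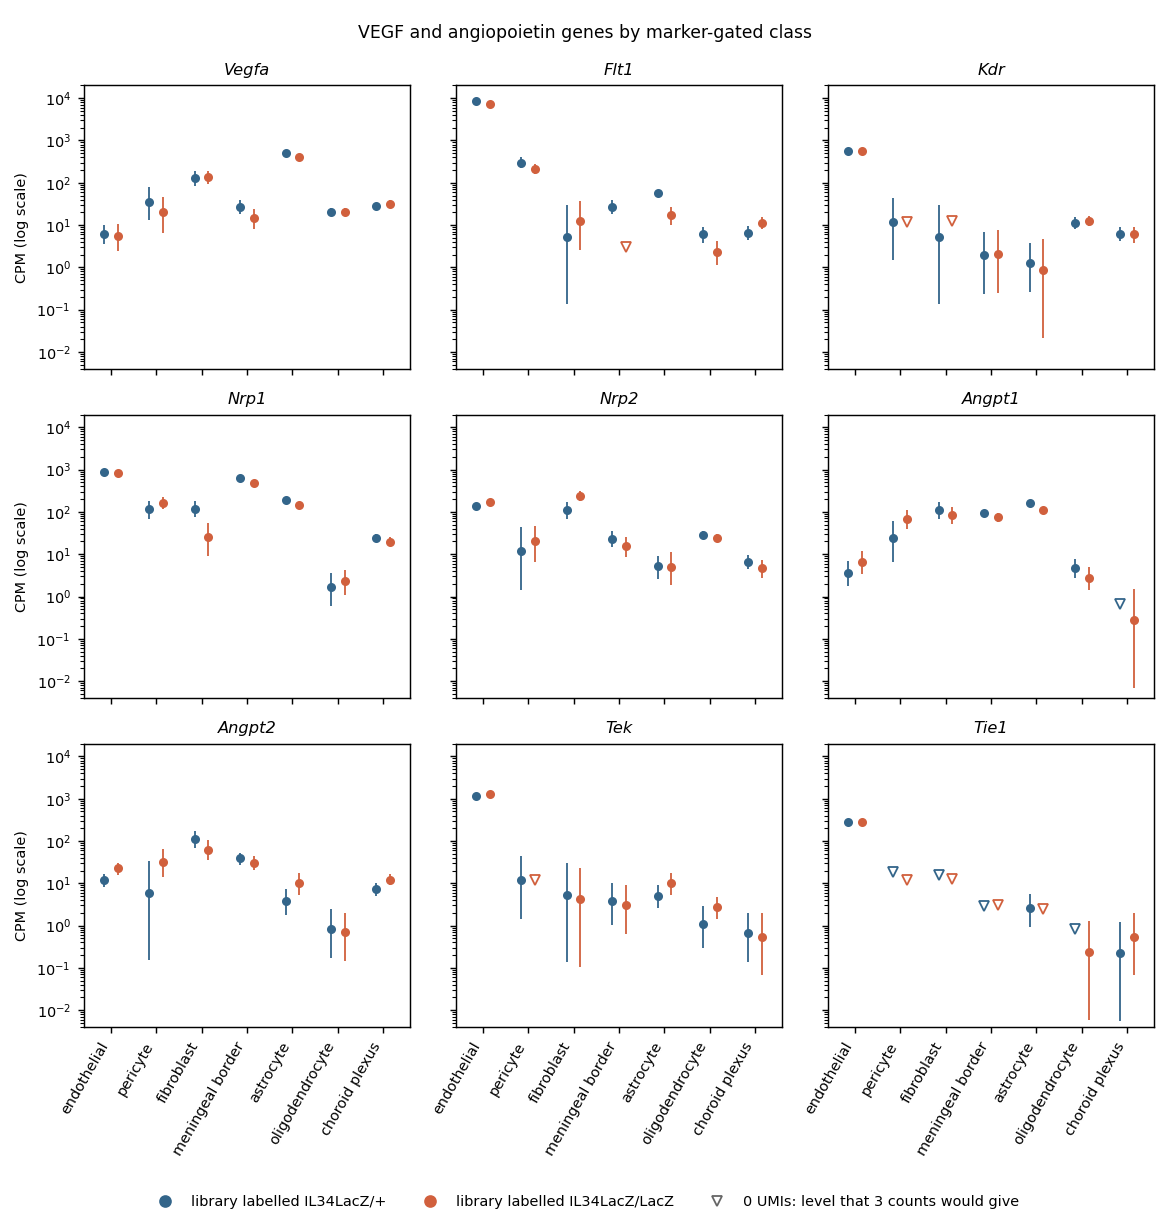
CPM of the 9 genes on a log axis in 7 marker-gated classes, blue for the library labelled IL34LacZ/+ and orange for the library labelled IL34LacZ/LacZ, with 95% counting intervals as bars and open triangles at the level of 3 counts where no UMI was found. Flt1, Kdr, Tek and Tie1 peak in endothelial-like cells, while Vegfa peaks in astrocyte-like cells at 516 and 415 CPM.

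Vegfa (chr17:46016993-46032369, minus strand, GRCm38), the ligand of Kdr and Flt1, was detected in 89.1% and 92.4% of astrocyte-like cells. Its summed level came to 516 CPM (487 to 546; 1201 UMIs) and 415 CPM (379 to 453; 491 UMIs). Fibroblast-like cells followed with 129 CPM (82.4 to 191; 24 UMIs) and 138 CPM (95 to 194; 33 UMIs). Of the 11 astrocyte markers 9 and 7 were detected in fibroblast-like cells, summing to 6219 and 5982 CPM. The highest marker gave 3983 and 3545 CPM of this, and Aqp4 gave 1 and 0 UMIs. The part of astrocyte RNA in the Vegfa and Angpt1 of fibroblast-like cells was not tested. Choroid plexus epithelium-like cells held 28.0 and 32.0 CPM, oligodendrocyte-like cells 20.5 and 20.2 CPM, meningeal border-like cells 27.1 and 14.5 CPM, and pericyte-like cells 36.1 and 20.1 CPM. In the library labelled IL34LacZ/+ the intervals of the last 4 classes overlapped, so their order was not resolved there. Endothelial-like cells stood lowest of the 7 classes, at 6.24 CPM (3.63 to 9.99) and 5.47 CPM (2.5 to 10.4), below the 19.0 and 10.4 CPM of the barcodes that the filters left out. In the library labelled IL34LacZ/LacZ this interval overlapped those of meningeal border-like cells (7.93 to 24.3), pericyte-like cells (6.54 to 47.0) and left-out barcodes (9.13 to 11.8). The lowest level was therefore not resolved there.

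After every cell was thinned to 2000 UMIs, Vegfa was seen in 56.1% and 59.3% of astrocyte-like cells and in 1.27% and 0.766% of endothelial-like cells, whose unthinned medians were 8584 and 9031 UMIs against 4387 and 4850 UMIs. The thinned share in endothelial-like cells was read as background. The cell with most Vegfa held 3.00% and 4.89% of the astrocyte-like UMIs, so the level did not rest on a few cells.

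Angpt1 (chr15:42424723-42676977, minus strand), the agonist of Tek, came from the same astrocyte-like cells and from the connective tissue classes. Astrocyte-like cells held 166 CPM (150 to 184; 387 UMIs) and 111 CPM (92.5 to 131; 131 UMIs). Fibroblast-like cells held 113 CPM (69.7 to 172) and 83.6 CPM (51.1 to 129), and meningeal border-like cells 92.0 CPM (74.4 to 112) and 74.6 CPM (58.4 to 94.0). In the library labelled IL34LacZ/+ the fibroblast-like interval overlapped those of astrocyte-like and meningeal border-like cells. In the library labelled IL34LacZ/LacZ these 3 classes had overlapping intervals, and 1 fibroblast-like cell held 75% of that class's Angpt1. Pericyte-like cells gave 4 and 17 UMIs, 24.1 and 68.5 CPM, and their interval in the library labelled IL34LacZ/LacZ (39.9 to 110) overlapped all 3. Choroid plexus epithelium-like cells, with 0 and 1 UMI, stood at the bottom, and 3 counts would have been 0.673 and 0.821 CPM there.

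Endothelial-like cells held 10 and 11 UMIs of Angpt1, and 7 and 5 of these lay in the 23 and 8 cells of the arterial zone. This made 44.7 CPM (18.0 to 92.1) and 101 CPM (32.8 to 236) in arterial cells, against 0.902 and 0.806 CPM in capillary cells, from 2 UMIs and 1 UMI. The arterial UMIs came from 4 and 2 cells. Venous cells gave 0 and 4 UMIs, the latter all from 1 cell and equal to 18.5 CPM (5.04 to 47.4).

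Angpt2 (chr8:18690263-18741562, minus strand), the context-dependent ligand of Tek, was low and spread over several classes. It lies in Mcph1, which is on the opposite strand, and the sources used here do not say how the counting treated strand. Fibroblast-like cells were highest at 113 CPM (69.7 to 172; 21 UMIs) and 62.7 CPM (35.1 to 103; 15 UMIs). Meningeal border-like cells held 38.7 CPM (27.7 to 52.7) and 30.1 CPM (20.1 to 43.2). Pericyte-like cells held 6.02 CPM (0.152 to 33.5; 1 UMI) and 32.2 CPM (13.9 to 63.5; 8 UMIs). The intervals of meningeal border-like and pericyte-like cells overlapped in both libraries. In the library labelled IL34LacZ/LacZ both also overlapped the fibroblast-like interval, so the order of these classes was not resolved there. Endothelial-like cells held 12.1 CPM (8.33 to 17.0) and 22.5 CPM (15.8 to 31.0), where 23 cells gave 33 UMIs and 18 cells gave 37 UMIs. Choroid plexus epithelium-like cells held 7.40 and 12.3 CPM, from 33 UMIs in 27 cells and 45 UMIs in 39 cells, while oligodendrocyte-like cells held 3 UMIs in each library. Of the endothelial Angpt2 UMIs, 32 and 33 were in capillary cells, at 14.4 and 26.6 CPM, and the others in cells without a zone. No UMI was found in arterial, venous or fenestrated cells. There 3 counts would have been 19.2 and 60.5 CPM in arterial and 17.9 and 13.9 CPM in venous cells. The 95% intervals reach 23.6 and 74.5 CPM in arterial, 22.0 and 17.1 CPM in venous and 79.0 and 62.7 CPM in fenestrated cells. Only the limit of venous cells in the library labelled IL34LacZ/LacZ lay below the capillary level, so the zones were otherwise not resolved.

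The 4 receptors that were most restricted to endothelial-like cells have the following RefSeq sequences, 250 bases before the annotated start (GRCm38.p6, gene strand, 5′ to 3′). They are shown because each of these genes was highest in endothelial-like cells in both libraries. None is a gate marker, but other endothelial genes set the class, so the pattern is not independent of the gate. Capitals mark GGAA or its reverse complement TTCC, the core that ETS transcription factors bind, which do not overlap each other. The windows are chr5:147726012-147726261 for Flt1, chr5:75978456-75978705 for Kdr, chr4:94739039-94739288 for Tek and chr4:118489850-118490099 for Tie1.
Flt1: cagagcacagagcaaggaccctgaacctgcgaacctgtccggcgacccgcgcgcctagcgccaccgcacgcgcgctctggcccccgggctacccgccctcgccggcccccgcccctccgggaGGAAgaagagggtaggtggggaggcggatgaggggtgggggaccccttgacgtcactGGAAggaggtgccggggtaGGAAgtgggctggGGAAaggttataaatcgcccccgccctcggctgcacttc
Kdr: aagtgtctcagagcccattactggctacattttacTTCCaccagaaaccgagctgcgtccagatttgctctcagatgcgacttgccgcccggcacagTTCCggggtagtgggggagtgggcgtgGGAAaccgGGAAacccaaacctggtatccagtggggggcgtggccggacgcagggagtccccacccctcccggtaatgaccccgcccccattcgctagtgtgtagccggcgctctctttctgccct
Tek: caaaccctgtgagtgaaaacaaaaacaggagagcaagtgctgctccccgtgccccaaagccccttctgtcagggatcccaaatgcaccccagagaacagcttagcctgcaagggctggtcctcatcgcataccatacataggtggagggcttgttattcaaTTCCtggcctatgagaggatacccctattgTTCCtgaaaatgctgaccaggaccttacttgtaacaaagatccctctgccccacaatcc
Tie1: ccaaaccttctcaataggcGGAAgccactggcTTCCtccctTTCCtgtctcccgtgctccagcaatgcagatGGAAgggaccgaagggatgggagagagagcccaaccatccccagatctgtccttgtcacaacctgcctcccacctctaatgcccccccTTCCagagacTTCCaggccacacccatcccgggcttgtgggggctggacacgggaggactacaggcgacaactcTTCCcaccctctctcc
The core occurs 4 times in the Flt1 and Kdr windows, 2 times in that of Tek and 7 times in that of Tie1. It was not particular to these genes. Vegfa, low in endothelial-like cells, has 2 windows with 6 and 2 matches, and those of Nrp1 and Nrp2 hold 4 and 1. At least 6 matches are found in 8.69% of windows. Of 32851 RefSeq promoter windows of this length 93.4% hold at least 1 match and the median is 3. At least 7 matches, as in Tie1, are found in 3.82% of windows and at least 4 in 33.4%. A match describes the letters and is not a bound site. RefSeq entries were found for 7 of the 9 genes.

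Flt1 (chr5:147561604-147726011, minus strand), the high-affinity receptor that holds VEGF-A, was detected in all 517 and 294 endothelial-like cells. The level reached 8353 CPM (8245 to 8463) from 22767 UMIs in the first library and 7297 CPM (7167 to 7429) from 12005 UMIs in the second. Detection remained at 100% after thinning to 2000 UMIs.

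Pericyte-like cells, which surround capillaries, held 301 CPM of Flt1 (223 to 397) from 50 UMIs and 213 CPM (160 to 279) from 53 UMIs. Flt1 was found in 19 of 33 and 27 of 45 of these cells, or in 35.5% and 16.7% after thinning. The other endothelial receptors were nearly missing: Kdr and Tek gave 2 and 0 UMIs each and Tie1 gave none. Of the 14 endothelial markers 9 and 8 were detected there, summing to 506 and 455 CPM against 21560 and 19711 CPM in endothelial-like cells, and Cldn5 gave 5 and 1 UMIs. In the library labelled IL34LacZ/+ 1 cell carried 19 of the 50 Flt1 UMIs. Of the Flt1 and Kdr tags of pericyte-like cells, Kdr made 3.85% (0.469 to 13.2%) and 0% (up to 6.72%), beside 6.24% and 7.14% in endothelial-like cells. The part of endothelial RNA in this Flt1 was not tested. Neuron-like cells, only 16 and 17 in number, held 220 and 262 CPM of Flt1, but 1 cell in each library gave 85.7% and 68.4% of it.

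In astrocyte-like cells Flt1 stood at 57.5 and 16.9 CPM, but 1 cell held 60 of the 134 UMIs and 1 cell 16 of the 20. Beside it 14 and 12 of the 14 endothelial markers were detected, summing to 121 and 54.9 CPM, and their part in this Flt1 was not tested. Only 3.56% and 0.847% of astrocyte-like cells had Flt1 after thinning. Oligodendrocyte-like and choroid plexus epithelium-like cells held between 2.32 and 11.5 CPM.

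Kdr (chr5:75932827-75978458, minus strand), the main signalling receptor for VEGF-A, stood at 555 CPM (528 to 584; 1514 UMIs) and 561 CPM (525 to 598; 923 UMIs) in endothelial-like cells, with detection in 77.8% and 77.6%. Outside endothelium its level did not pass 12.8 CPM in any of the other 6 classes plotted.

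Oligodendrocyte-like cells led the classes outside endothelium that had more than 3 UMIs of Kdr, with 11.4 CPM (8.16 to 15.4) from 41 UMIs and 12.8 CPM (9.63 to 16.6) from 55 UMIs, spread over 31 and 37 cells. Beside these, Flt1 had only 22 and 10 UMIs in the same cells. Kdr therefore made 65.1% (52.0 to 76.7%) and 84.6% (73.5 to 92.4%) of the Flt1 and Kdr tags, against 6.24% and 7.14% in endothelial-like cells. Of the 14 endothelial markers 11 and 13 were detected in oligodendrocyte-like cells, summing to 38.0 and 21.6 CPM. In choroid plexus epithelium-like cells the share of Kdr was 49.1% (35.6 to 62.7%) and 34.4% (22.9 to 47.3%), from 28 and 22 UMIs of Kdr, and 1 cell held 36 of the 42 Flt1 UMIs in the library labelled IL34LacZ/LacZ. In fenestrated endothelial-like cells, set by Plvap, Esm1 and other genes, the share was 27.6% (23.2 to 32.3%) and 21.6% (18.1 to 25.5%), and the choroid plexus interval of the library labelled IL34LacZ/LacZ overlapped it. The part of endothelial RNA in this Kdr was not tested. After thinning, Kdr was seen in only 3.66% and 3.45% of oligodendrocyte-like cells.

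Tek (chr4:94739289-94874976, plus strand), the receptor of both angiopoietins, stood at 1177 CPM (1136 to 1218) and 1322 CPM (1267 to 1379) in endothelial-like cells, with detection in 94.6% and 95.6%. The other 6 classes plotted held at most 12 CPM. Tie1 (chr4:118471191-118490061, minus strand), its modulating partner, stood at 276 CPM (257 to 297) and 279 CPM (254 to 306) and was detected in 67.9% and 69.0%. Tie1 gave no UMI in pericyte-like, fibroblast-like and meningeal border-like cells of either library, where 3 counts would have been 18.1 and 12.1 CPM in pericyte-like cells and the 95% intervals reach 22.2 and 14.9 CPM.

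Nrp1 (chr8:128358604-128503363, plus strand), co-receptor for VEGF-A and semaphorin 3A, was highest in endothelial-like cells, with 878 CPM (843 to 914) and 848 CPM (804 to 894). Meningeal border-like cells came next with 649 CPM (601 to 701) and 481 CPM (438 to 527), from 671 and 464 UMIs and with detection in 100% and 95.1% of cells. Astrocyte-like cells held 190 CPM (173 to 209) and 147 CPM (126 to 170), and these 3 levels had separate intervals in both libraries. Pericyte-like cells, with 114 CPM (68.8 to 179) and 161 CPM (115 to 219), overlapped the astrocyte-like interval in both libraries. Neuron-like cells held 231 and 344 CPM, of which 1 cell gave 59.1% and 46.0%. Oligodendrocyte-like cells were lowest of the 7 classes plotted, at 1.66 and 2.32 CPM. Microglia-like cells gave 19 UMIs in 43 cells and 1 UMI in 10 cells, too few to compare.

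Nrp2 (chr1:62703285-62818695, plus strand), which pairs with VEGF-C receptors and binds semaphorin 3F, overlaps Gm37121 on its own strand, so tags of the shared stretch may be assigned to neither. Endothelial-like cells had 369 UMIs of it, 135 CPM (122 to 150), and 289 UMIs, 176 CPM (156 to 197). Fibroblast-like cells held 113 CPM (69.7 to 172; 21 UMIs) and 238 CPM (180 to 309; 57 UMIs), and oligodendrocyte-like cells 29.1 and 24.4 CPM, from 105 UMIs in each library.

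The 2 neuropilins divided the classes. Nrp2 made 94.6% (88.6 to 98.0%) and 91.3% (84.6 to 95.8%) of neuropilin tags in oligodendrocyte-like cells. It made 2.64% (1.37 to 4.56%) and 3.33% (1.23 to 7.11%) in astrocyte-like cells and 3.45% and 3.13% in meningeal border-like cells. In fibroblast-like cells the share was 48.8% (33.3 to 64.5%) and 90.5% (80.4 to 96.4%), from 43 and 63 neuropilin tags in 19 and 23 cells. The fibroblast-like shares of both libraries did not overlap, but they rest on few cells.

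**Figure D2:**
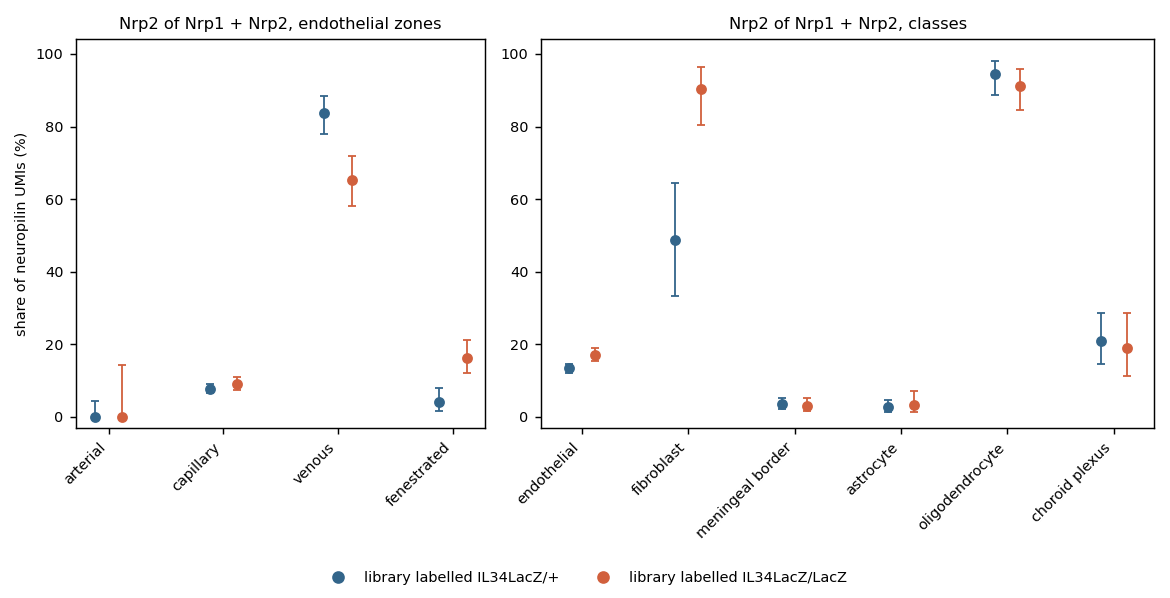
Nrp2 as a percentage of all Nrp1 and Nrp2 UMIs in endothelial zones (left) and classes (right), with exact binomial 95% intervals for counting error, blue for the library labelled IL34LacZ/+ and orange for the library labelled IL34LacZ/LacZ. Venous cells (83.7% and 65.2%) and oligodendrocyte-like cells (94.6% and 91.3%) stand near the top, and arterial cells are at 0%.

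Endothelial-like cells were further divided by zone markers into arterial (23 and 8 cells), capillary (439 and 230), venous (22 and 27) and fenestrated cells (8 and 7), and 25 and 22 cells had no zone. The fenestrated zone was set by Plvap, Esm1 and other genes of the leaky capillaries found in choroid plexus and circumventricular organs. Its few cells make each value there provisional.

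Among arterial, capillary and venous cells, Nrp2 was highest in the venous ones. Venous cells held 1012 CPM (866 to 1176; 170 UMIs) and 597 CPM (499 to 709; 129 UMIs), and capillary cells 76.2 CPM (65.1 to 88.6) and 83.8 CPM (68.5 to 102). Venous cells were thus 13.3-fold and 7.12-fold above capillary cells, log2 3.73 (3.42 to 4.05) and 2.83 (2.45 to 3.22). Arterial cells gave no UMI of Nrp2 in either library, so that venous cells were at least 52.8-fold and at least 9.86-fold higher than 3 counts would be there. Thinned detection was 63.6% and 57.7% of venous cells against 9.27% and 14.5% of capillary cells.

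Nrp1 ran the other way between the same zones. Capillary cells held 900 CPM (861 to 941) and 830 CPM (780 to 882), and venous cells 196 CPM (135 to 276; 33 UMIs) and 319 CPM (248 to 404; 69 UMIs), log2 -2.20 (-2.74 to -1.70) and -1.38 (-1.75 to -1.03). Arterial cells lay between them at 536 and 484 CPM. In the library labelled IL34LacZ/LacZ the log2 ratio of venous to arterial cells, -0.60 (-1.29 to 0.13), had an interval that included equality. Nrp2 accordingly made 83.7% (77.9 to 88.5%) and 65.2% (58.1 to 71.8%) of neuropilin tags in venous cells, 7.80% and 9.17% in capillary cells, and 0% in arterial cells, where the interval reached 4.30% and 14.2%.

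Fenestrated cells had the highest levels of Nrp1 and Kdr of any zone. Nrp1 stood at 4045 CPM (3489 to 4665; 189 UMIs) and 4008 CPM (3513 to 4554; 236 UMIs), 4.49-fold and 4.83-fold the capillary level. Kdr stood at 2290 CPM (1877 to 2767; 107 UMIs) and 1834 CPM (1505 to 2215; 108 UMIs), 4.08-fold and 3.35-fold the capillary level. The highest cell held 34.9% and 23.7% of the Nrp1 UMIs and 28.0% and 48.1% of the Kdr UMIs. Without it the log2 ratio of Kdr to capillary cells was 1.42 instead of 1.74 in the library labelled IL34LacZ/LacZ, and that of Nrp1 was 1.88 instead of 2.17 in the library labelled IL34LacZ/+.

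Nrp2 in fenestrated cells was 171 CPM from 8 UMIs and 781 CPM from 46 UMIs, of which 1 cell gave 37.0%, and the intervals of both libraries (73.9 to 337 and 572 to 1042) did not overlap. In the library labelled IL34LacZ/LacZ this level lay above the 597 CPM (499 to 709) of venous cells. The intervals overlapped, so the zone highest for Nrp2 was not resolved in that library.

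Kdr was lowest in arterial cells, at 223 CPM (156 to 311; 35 UMIs) and 262 CPM (140 to 449; 13 UMIs), against 562 and 547 CPM in capillary cells and 399 and 426 CPM in venous cells. The log2 ratio of arterial to capillary cells was -1.33 (-1.86 to -0.85) and -1.06 (-1.98 to -0.28). That of venous to arterial cells was 0.84 (0.23 to 1.47) and 0.70 (-0.15 to 1.66), and the latter interval included equality. Flt1 was lower in venous than in capillary cells in both libraries, at 5352 against 8709 CPM and 5110 against 7705 CPM. In arterial cells it was near the capillary level at 8492 CPM in the library labelled IL34LacZ/+ and near the venous level at 5086 CPM in the library labelled IL34LacZ/LacZ, where 8 cells were found and 1 of them held 32.5% of the UMIs.

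Tek varied little across arterial (1334 and 1130 CPM), capillary (1155 and 1359 CPM) and venous cells (1464 and 1365 CPM). Venous cells were 1.27-fold above capillary cells in the library labelled IL34LacZ/+ (log2 0.34, 0.15 to 0.53) and at the same level in the other (0.01, -0.18 to 0.19). Fenestrated cells had less Tek, 514 CPM (329 to 764; 24 UMIs) and 798 CPM (587 to 1062; 47 UMIs), log2 -1.17 (-1.81 to -0.59) and -0.77 (-1.22 to -0.35) against capillary cells. Tie1 there was 599 and 408 CPM against 269 and 276 CPM in capillary cells, from 28 and 24 UMIs, and the interval of its ratio included equality in the library labelled IL34LacZ/LacZ. Tie1 made 53.8% (39.5 to 67.8%) and 33.8% (23.0 to 46.0%) of Tek and Tie1 tags in fenestrated cells against 18.9% and 16.9% in capillary cells.

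**Figure D3:**
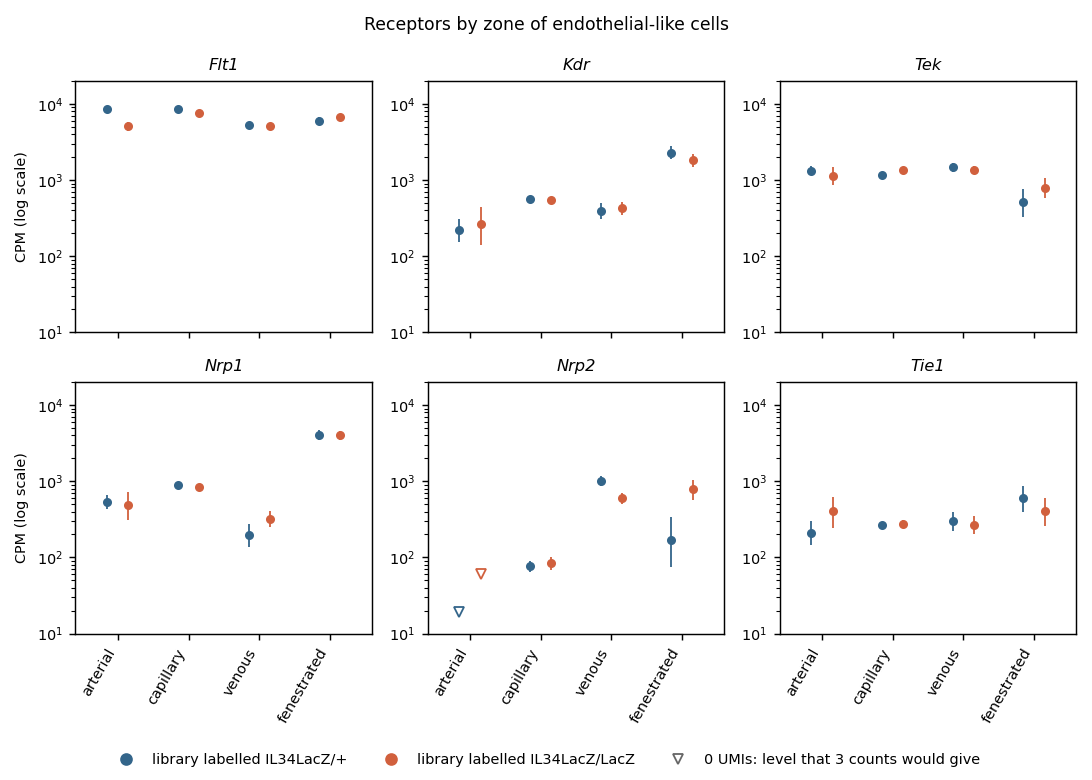
CPM of the 6 receptor genes on a log axis in 4 zones of endothelial-like cells, blue for the library labelled IL34LacZ/+ and orange for the library labelled IL34LacZ/LacZ, with 95% counting intervals and open triangles at the level of 3 counts where no UMI was found. Nrp2 is at 1012 and 597 CPM in venous cells and without a UMI in arterial cells, and Nrp1 and Kdr are highest in fenestrated cells.

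Most endothelial-like cells carried several of the receptors at once. After thinning to 2000 UMIs, 4 of the 6 receptor genes were seen in 193 of 471 cells (41.0%) and 84 of 261 cells (32.2%), and 3 of the 6 in 136 (28.9%) and 87 cells (33.3%). All 6 were seen in 6 and 8 cells. Flt1 was seen in every thinned cell, so no cell could lack all of them. Whether the receptors occurred together beyond their separate detection shares was not tested.

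Between the libraries the endothelial receptors stayed close. Of the 9 genes, 6 had at least 100 UMIs over both libraries in endothelial-like cells, and 0 of these 6 passed 1.5-fold, where 7.51% of the 6194 genes measured in these cells did so in either direction. Their median log2 ratio, IL34LacZ/LacZ over IL34LacZ/+, was 0.01 beside -0.01 over all measured genes. Kdr (0.01, -0.11 to 0.13), Tie1 (0.01, -0.16 to 0.18) and Nrp1 (-0.05, -0.15 to 0.05) had intervals that included equality. The Tie1 ratio depended on the processing: under other settings it ranged from -0.38 to 0.02. Thinned detection of Tie1 was 44.8% and 36.8%. Flt1 was lower by a log2 ratio of -0.20 (-0.23 to -0.16) and Tek higher by 0.17 (0.09 to 0.25), differences beyond counting error that have no replicate check. Vegfa, Angpt1 and Angpt2 had too few endothelial UMIs, and the ratio of Angpt2 was 0.89 (0.18 to 1.62) from 33 and 37 UMIs.

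Nrp2 was the receptor with the highest ratio, 0.38 (0.15 to 0.60). Venous cells were 22 of 517 (4.26%, 2.69 to 6.37%) and 27 of 294 (9.18%, 6.14 to 13.1%) endothelial-like cells, and these intervals overlapped. Within the zones the directions of the Nrp2 ratio differed. Nrp2 was lower in venous cells, 1012 against 597 CPM (-0.76, -1.10 to -0.42), and its capillary ratio, 76.2 against 83.8 CPM, had an interval that included equality (0.14, -0.23 to 0.50). In the 8 and 7 fenestrated cells it was higher, 171 against 781 CPM (2.19, 1.09 to 3.48), from 8 and 46 UMIs. With the zones set to the same share in both libraries the ratio was -0.17, and after thinning every cell to 2000 UMIs it was 0.82. In venous cells Nrp1 had the opposite direction, 196 against 319 CPM (0.70, 0.08 to 1.35). Of the 6 receptors in capillary cells 0 passed 1.5-fold (background 6.62%). Arterial Flt1 differed by -0.74 (-0.94 to -0.54), on 23 and 8 cells.

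Astrocyte-like cells had 4 genes with at least 100 UMIs, and each was lower in the library labelled IL34LacZ/LacZ. Of the 4, 2 passed 1.5-fold, Flt1 and Angpt1, where 3.84% of 5754 measured genes did so in that direction and 5.37% in either. Angpt1 fell from 166 to 111 CPM, log2 -0.59 (-0.88 to -0.30), only just past 1.5-fold, and detection after thinning was 25.3% and 15.3%. With a mitochondrial limit of 10% the ratio was -0.42 and after thinning -0.45, both short of 1.5-fold. Vegfa was lower by -0.31 (-0.47 to -0.16) and Nrp1 by -0.37 (-0.63 to -0.12), though after thinning these were -0.12 and -0.02. The Flt1 ratio, -1.77 (-2.53 to -1.08), rests on a few cells: without the highest cell of each library it was -3.23. The median over the 4 genes was -0.48 beside -0.04 over all measured genes.

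**Figure D4:**
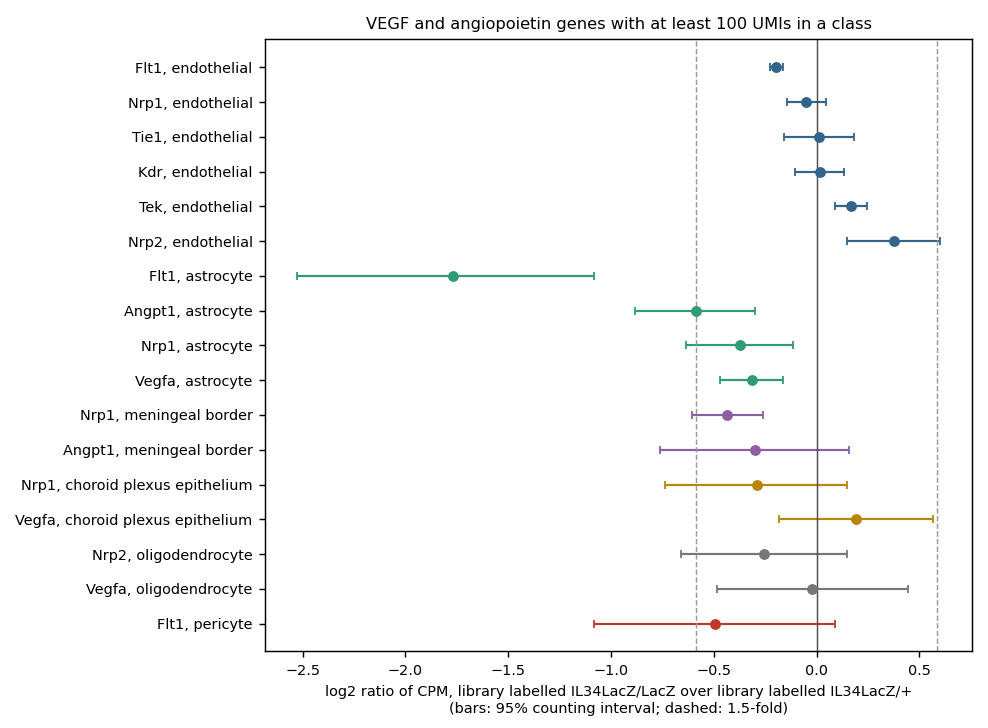
Log2 ratio of CPM, library labelled IL34LacZ/LacZ over library labelled IL34LacZ/+, for each gene with at least 100 UMIs in a class, coloured by class, with 95% counting intervals and dashed lines at 1.5-fold. The endothelial values lie between -0.20 and 0.38, and the 4 astrocyte values are all below 0.

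In the other marker-gated classes no gene of the 9 that had 100 UMIs passed 1.5-fold. These were 0 of 2 genes in choroid plexus epithelium-like cells (background 6.67%), 0 of 2 in oligodendrocyte-like cells (3.24%), 0 of 2 in meningeal border-like cells (7.51%) and 0 of 1 in pericyte-like cells (11.1%). The largest of these was Flt1 in pericyte-like cells, -0.50 (-1.08 to 0.09), which became 0.05 without the highest cell of each library. Nrp1 in meningeal border-like cells was next at -0.43 (-0.61 to -0.26). In fibroblast-like cells, where none of the 9 reached 100 UMIs, Nrp1 fell from 22 to 6 UMIs while Nrp2 went from 21 to 57, and 24.6% of the genes measured in this small class passed 1.5-fold.

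The wider pathway was taken as 82 further genes in 8 lists, of which 48 were measured in endothelial-like cells. Of these, 1 was higher past 1.5-fold (background 2.31%) and 6 were lower (background 5.2%), and their median log2 ratio was 0.07 beside -0.01 over all measured genes. Adamts9, an extracellular protease, went from 62.4 to 185 CPM, log2 1.57 (1.30 to 1.85). Vegfc, a VEGF ligand that acts on Flt4, went from 211 to 109 CPM (log2 -0.95, -1.20 to -0.71). The next lowest were the netrin receptor Unc5b (116 and 66.3 CPM, -0.81), the kinases Prkca (38.2 and 21.9 CPM, -0.80) and Akt1 (41.5 and 25.5 CPM, -0.70), and the shear-responsive factor Klf2 (370 and 234 CPM, -0.66). The last of the 6, outside the 5 lowest and named to complete the count, was the Notch ligand Dll4 (62.4 and 40.1 CPM, -0.64).

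By role, none of the 2 semaphorin and 3 plexin partners of the neuropilins that were measured passed 1.5-fold (background 7.51% in either direction). Plxna2 stood at 409 and 480 CPM in endothelial-like cells. The measured modifiers of Tie signalling were also short of 1.5-fold. Among them Ptprb, the phosphatase that restrains Tek and also a gate marker, stood at 2512 and 2646 CPM. Of the 26 signal transduction genes 23 were measured and 2 were lower (background 5.2%). Placental growth factor (Pgf) gave no UMI in endothelial-like cells. In astrocyte-like cells 2 of 32 measured pathway genes were higher (background 1.53%), Foxo3 (58.0 and 91.2 CPM, 0.65) and the oxygen sensor Egln1 (28.3 and 43.9 CPM, 0.63), and none was lower. In choroid plexus epithelium-like cells 1 of 28 was lower (background 1.07%), Adamts1 (32.3 and 20.8 CPM, -0.64). In oligodendrocyte-like cells none of 43 passed 1.5-fold (background 3.24%).

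Genes of like pattern were sought over 8 classes and zones, by Pearson's r of log2(CPM + 10) within each library among 9999 genes, naming the 2 genes with the highest lower value. The points share libraries and the capillary and venous zones are parts of the endothelial class, so r is a description. Tie1 was most like Podxl (0.999 and 0.999), then Dipk2b, and Tek most like Pecam1 (0.998 and 0.998), itself a gate marker, and Degs2 (0.999 and 0.997). Flt1 was nearest to Gm48602 and Adgrf5 (0.989 and 0.993 for the latter), and Kdr to St8sia6 (0.992 and 0.991) and Ccm2l (0.991 and 0.991). Nrp1 was nearest to Spats2 (0.949 and 0.967) and Arhgap18 (0.929 and 0.945), and Nrp2 to Prcp (0.979 and 0.967) and Gm5127 (0.973 and 0.957). Vegfa paired with Sall2 (0.982 and 0.985) and Bbof1 (0.972 and 0.979), Angpt1 with Ctbs (0.975 and 0.971) and C130023A14Rik (0.983 and 0.949), and Angpt2 less closely with Sec22b (0.932 and 0.847) and Epha7 (0.945 and 0.843).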

How the data were processed

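Single-cell 3′ libraries were made with a 10x Chromium kit (v3.1), per the labels' protocols. The authors deposited UMI count matrices, and per the file headers Cell Ranger 7.1.0 made them. The submitters' processing notes name mm10 (GRCm38.p6). The sources used here do not say whether intronic reads were counted or free RNA was removed. The deposited counts were used as they stand: 3901 barcodes with 26679053 UMIs in the library labelled IL34LacZ/+ and 5400 with 36696941 in that labelled IL34LacZ/LacZ, 8 barcode sequences being shared.

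Barcodes with at least 1000 UMIs, 500 genes and at most 15% mitochondrial UMIs were kept, and Scrublet (scanpy 1.11.5) marked and removed 3 (0.180%) and 7 (0.596%) as doublets, so missed doublets are possible. Each cell took the class whose marker list scored highest by a margin of 0.1, with at least 3 markers detected; 193 of 2833 cells lay between margins of 0.05 and 0.15. Zones needed 2 markers and a margin of 0.05, and 87 of 811 endothelial-like cells were within 0.1. The scoring rule was set after the data were seen, and the 9 genes and the lists were chosen with earlier results of these data known. Classes are rebuilt and may differ from the authors' own.

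CPM carry exact Poisson, shares Clopper-Pearson and ratios exact conditional binomial 95% intervals. A gene was measured with at least 100 UMIs over both libraries and was past the fold at 1.5. Named genes were the 9 genes, up to 5 highest and 5 lowest pathway genes past the fold in endothelial-like cells and up to 3 in other classes of at least 100 cells, and the 2 genes of likest pattern. Interval and ratio code was tested on simulated data. Other filters, gates, weights and thinning were tried. Positions came from GENCODE M21 (GRCm38).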

Additional observations from a re-analysis of the deposited data

Results flagged for a closer look

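The 2236 and 4232 barcodes that the filters left out still carried tags of all 9 genes, above the level that 3 counts would give. Flt1 stood there at 34.4 and 12.8 CPM, Vegfa at 19.0 and 10.4 CPM, Nrp1 at 13.2 and 7.87 CPM, Tek at 5.27 and 1.71 CPM, Nrp2 at 5.08 and 3.21 CPM, Angpt1 at 4.50 and 2.20 CPM, Kdr at 3.26 and 3.03 CPM, Tie1 at 0.862 and 1.23 CPM, and Angpt2 at 0.766 and 1.41 CPM. These barcodes are mostly over the mitochondrial limit (1501 and 2581 of them).

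The ratio between the libraries took opposite directions for both neuropilins, with intervals that did not include equality. Nrp1 had a log2 ratio of 0.70 in venous cells, but -0.12 in capillary cells, -0.37 in astrocyte-like cells and -0.43 in meningeal border-like cells. Nrp2 had 0.38 over endothelial-like cells but -0.76 in their venous zone. These intervals cover counting error only. After thinning, Nrp1 in astrocyte-like cells was at -0.02, and with an equal zone mix Nrp2 over endothelial-like cells was at -0.17. With 1 library per genotype these differences between cell groups were not tested.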

How the results depend on the processing

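Of 210 values of library ratios recomputed under other settings 193 stayed within the counting interval of the reported value and 17 moved, and of 96 such values of zone ratios 92 stayed and 4 moved. The zone ratios recomputed were Nrp1 and Nrp2 in venous and Nrp1 and Kdr in fenestrated over capillary cells, and none changed sign, nor did Flt1 and Angpt1 in astrocyte-like cells. Library ratios within zones and the other zone ratios were not recomputed. The number of the 9 genes past 1.5-fold in endothelial-like cells was 0, and 1 without the 2% of cells highest for a gene (Nrp2), 1 after thinning to 2000 UMIs (Nrp2) and 1 with a minimum of 30 UMIs (Angpt2). The log2 ratio of Nrp1 in fenestrated over capillary cells of the library labelled IL34LacZ/LacZ, 2.27, was 2.51 with every cell weighted equally and 2.53 after thinning. Without the highest cell it was 1.88 for Nrp1 in the library labelled IL34LacZ/+ and 1.42 for Kdr in the library labelled IL34LacZ/LacZ, an alternative chosen after seeing the data, as was the equal zone mix. The Nrp2 ratio over endothelial-like cells ranged from -0.17 to 0.82, that of Flt1 in pericyte-like cells from -2.22 to 0.23, and that of Angpt1 in astrocyte-like cells from -0.78 to -0.42. The causes were not tested. With a pseudocount of 1 CPM, 10 of the 18 genes named for likeness were named again. Depth limits Angpt1 and Angpt2 in endothelial zones and every gene in fenestrated and fibroblast-like cells. No paired analysis was possible because there is 1 library per genotype.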
